A study of Homo sapiens with 18 samples.

Results

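CCT, also called TRiC, is the cytosolic chaperonin of animal cells, and the genes described here are those of its 8 subunits: TCP1, CCT2, CCT3, CCT4, CCT5, CCT6A, CCT7 and CCT8. They were chosen by name from the 23250 gene symbols listed in each library, and all 8 were among the 12769 genes tested. RNA was sequenced from SUDHL6, Farage and SUDHL4, human cell lines of diffuse large B cell lymphoma. For 12 h each line received either 10 µM of a small molecule that inhibits the transcriptional repressor BCL6, which the labels give as a code, or the vehicle DMSO. The 6 groups were therefore treated SUDHL6, SUDHL6 with DMSO, treated Farage, Farage with DMSO, treated SUDHL4 and SUDHL4 with DMSO, each with 3 libraries. The labels give no genotype for the lines. They also do not say whether the replicates are separate cultures, and the p-values therefore speak only of the spread among these libraries, which could be technical.

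The chaperonin is built of stacked rings, each holding a copy of every subunit in a fixed order, around a cavity in which newly made proteins fold at the cost of ATP. It is known above all for folding actin and tubulin, and also many proteins with a beta-propeller fold. Prefoldin hands it unfolded actin and tubulin, and phosducin-like proteins assist it. In yeast the subunits fall into those that bind ATP tightly (the counterparts of TCP1, CCT4, CCT2 and CCT5, which are neighbours in the ring) and those that bind it weakly (the counterparts of CCT7, CCT8, CCT6A and CCT3). All are thought to be needed in equal number for a complete ring. The values here are transcript levels, and the protein was not measured.

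Depth, as reads recovered for the listed genes, was between 6.29 and 25.49 M (M, mega). The lowest 2 totals were those of replicate 3 of treated SUDHL6, with 6.29 M, and replicate 3 of SUDHL6 with DMSO, with 7.36 M. Every subunit had at least 2356 reads in every library. All 6 B cell markers examined were present in every group, but their summed level was lower with the inhibitor in each line. It was 2080 to 3140 CPM in treated SUDHL6 and 5230 to 5510 CPM with DMSO. In Farage it was 2010 to 2130 CPM treated and 3510 to 3670 CPM with DMSO. In SUDHL4 it was 4200 to 4320 CPM treated and 6160 to 6610 CPM with DMSO. The summed level of 5 T cell markers stayed at or below 2.72 CPM, and that of 5 myeloid markers at or below 3.62 CPM. CPM, the deposited unit, is a gene's reads scaled to a common total per library. Levels are given in CPM and as mean ± SD of 3 libraries. Changes are log2 fold changes of CPM + 1, treated over DMSO, with the SE of a limma model, and a change was called at an adjusted p under 0.05 over all genes tested. In RNA from bulk cultures, fewer cells of a kind and less RNA per cell cannot be told apart.

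On the deposited scale the 8 subunits did not all pass the test in any of the 3 lines. In SUDHL6, 2 of 8 rose (CCT3 and CCT4) and 0 fell, where 26.8% of all genes tested were called higher and 41.3% lower. In Farage, 6 of 8 rose (CCT6A, CCT5, TCP1, CCT3, CCT4 and CCT2) and 0 fell, against 25.4% of all genes higher and 46.5% lower. In SUDHL4, 3 of 8 rose (CCT6A, TCP1 and CCT5) and 3 fell (CCT7, CCT2 and CCT8), against 24.3% of all genes higher and 46.2% lower. The median change of the subunits was 0.13 in SUDHL6, 0.50 in Farage and 0.04 in SUDHL4, beside medians over all genes of -0.13, -0.22 and -0.21. The range from the lowest to the highest subunit was 0.44 in SUDHL6, 0.73 in Farage and 1.30 in SUDHL4. The middle 50% of all genes ran from -0.71 to 0.33 in SUDHL6, from -0.82 to 0.29 in Farage and from -0.84 to 0.27 in SUDHL4.

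**Figure D1:**
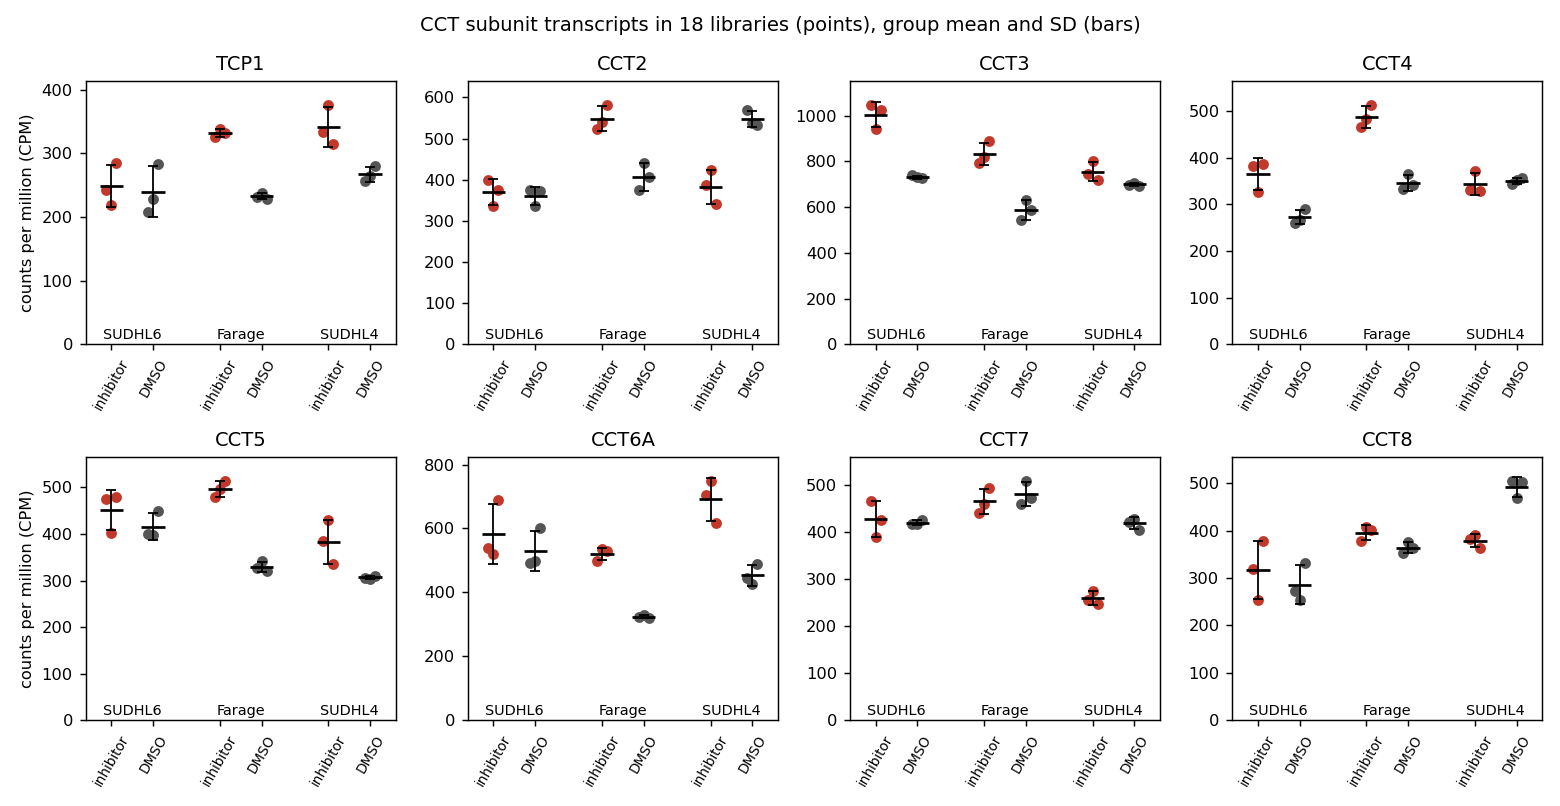
CPM of each subunit (vertical axis, from 0) in the 18 libraries, with the inhibitor left of DMSO for each line; points are libraries, and bars are the group mean and SD. In Farage the treated libraries of every subunit but CCT7 lie above the DMSO libraries, while in SUDHL4 those of CCT2, CCT7 and CCT8 lie below.

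These calls depend on how the libraries are set to a common scale. CPM divides by all reads, and more genes were called lower than higher with the inhibitor in each line. Under median-of-ratios scaling, which sets the libraries by the typical gene, the median over all genes was 0.00 in SUDHL6, -0.04 in Farage and 0.00 in SUDHL4, and every subunit moved up. On that scale the mean of the 8 changes was 0.35 in SUDHL6, 0.65 in Farage and 0.27 in SUDHL4, beside 0.17, 0.41 and -0.03 on the deposited scale. The counts then became 5 higher in SUDHL6 (33.1% of all genes higher, 34.8% lower), 7 higher in Farage (33.6% higher, 37.2% lower), and 5 higher with 1 lower in SUDHL4 (34.3% higher, 36.1% lower). edgeR on the recovered reads, with its TMM scaling, called 6 higher in SUDHL6 (34.4% of all genes higher, 33.8% lower), 7 higher in Farage (33.8% and 37.9%), and 5 higher with 1 lower in SUDHL4 (35.9% and 35.6%). DESeq2 on the same reads called 6 higher in SUDHL6 (34.0% and 34.2%) and 5 higher with 1 lower in SUDHL4 (35.7% and 36.2%). In Farage DESeq2 called all 8 higher (34.6% and 37.5%). The order of the subunits and the range between them do not depend on the scale: under median-of-ratios scaling the range was again 0.44, 0.73 and 1.30.

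**Figure D2:**
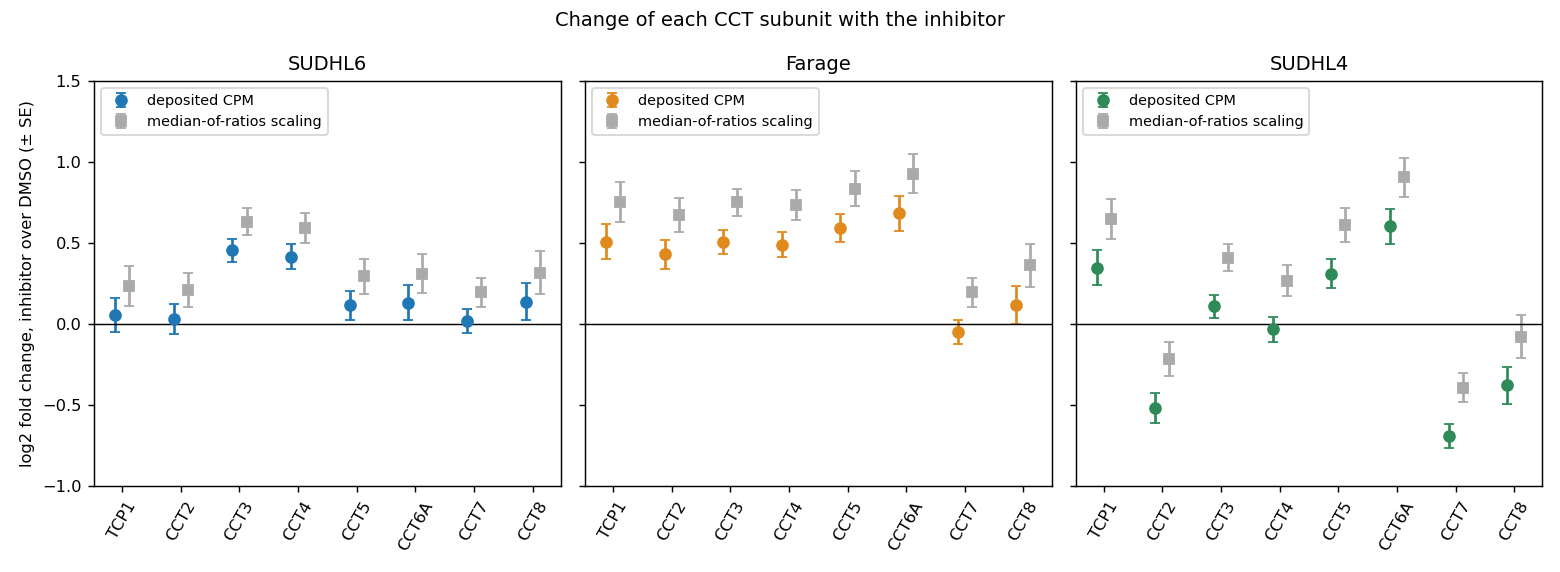
Log2 fold change with the inhibitor over DMSO (vertical axis, ± SE) of each subunit in each line, on the deposited scale (coloured circles) and under median-of-ratios scaling (grey squares). The grey points lie above the coloured ones by about the same amount for every subunit of a line, and the pattern among subunits is the same on both.

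The start regions of some subunits are shown because their transcripts moved apart in SUDHL4. They are RefSeq windows of the 250 bases before the annotated start (build GRCh38.p14), cut to stretches that hold no annotated exon, or to 30 bases around a match to GAANNTTC, the paired unit of the heat shock element. TCP1 rose in Farage and SUDHL4, CCT2 rose in Farage and fell in SUDHL4, and CCT7 and CCT8 fell in SUDHL4 on the deposited scale. Capitals mark GAANNTTC in the first 2 stretches and, in the third, CCAAT read on the other strand, the box bound by NF-Y.
TCP1, chr6:159789815-159789844, minus strand: tcgtttgaggcGAAGGTTCaacctcttccc
CCT2, chr12:69585789-69585818, plus strand: cccggagcgaaGAAATTTCtagtgtgggac
TCP1, chr6:159789750-159789811, minus strand: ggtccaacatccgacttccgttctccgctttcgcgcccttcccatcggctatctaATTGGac
CCT8, chr21:29073798-29073898, minus strand: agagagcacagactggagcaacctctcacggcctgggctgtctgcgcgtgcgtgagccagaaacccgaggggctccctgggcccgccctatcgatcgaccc
CCT7, chr2:73234058-73234235, plus strand: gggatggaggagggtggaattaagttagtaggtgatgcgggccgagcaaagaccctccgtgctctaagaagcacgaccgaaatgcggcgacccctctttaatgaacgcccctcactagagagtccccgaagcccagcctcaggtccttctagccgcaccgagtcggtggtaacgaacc
There were 9 windows for 7 of the subunits, with none for CCT6A, and a motif was searched on both strands. GAANNTTC was found in windows of TCP1 and CCT2, and in 5.78% of 35116 promoter windows. The CCT2 match was in the window chr12:69585639-69585888. That window lies downstream of the other CCT2 window (chr12:69585209-69585458), which had no GAANNTTC. CCAAT was found in windows of TCP1, CCT2, CCT3 and CCT8, and in 32.0% of all. TTCNNGAA (6.62% of all) and CACGTG, the E-box of MYC (6.34% of all), were in no subunit window. A match is a description of these letters only.

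Of the subunits whose yeast counterparts bind ATP tightly, TCP1, on chromosome 6, encodes the alpha subunit, which gave the complex its older name. TCP1 was at 243, 219 and 285 CPM in treated SUDHL6 (replicates 1 to 3), against 207, 229 and 284 CPM in SUDHL6 with DMSO. In treated Farage TCP1 was at 325, 337 and 332 CPM, against 231, 238 and 229 CPM in Farage with DMSO. In treated SUDHL4 it was at 333, 376 and 315 CPM, against 257, 265 and 280.1 CPM in SUDHL4 with DMSO. Treated and DMSO libraries did not overlap in Farage and SUDHL4 and overlapped in SUDHL6, where replicate 3 was highest in both groups. TCP1 rose by 0.51 in Farage (SE 0.107, adjusted p = 0.000449, limma) and by 0.35 in SUDHL4 (SE 0.107, adjusted p = 0.00785), and its change in SUDHL6 was 0.06 (adjusted p = 0.663).

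CCT4, on chromosome 2, encodes the delta subunit, the neighbour of TCP1 in the ring. In treated SUDHL6 CCT4 was at 382, 326 and 385 CPM, against 261, 267 and 289 CPM in SUDHL6 with DMSO. Treated Farage libraries held 465, 482 and 513 CPM, against 332, 365 and 342 CPM in Farage with DMSO. The treated SUDHL4 libraries held 332, 371 and 328 CPM, against 343, 352 and 356 CPM in SUDHL4 with DMSO. The groups were separate in SUDHL6 and Farage and overlapped in SUDHL4. CCT4 rose by 0.42 in SUDHL6 (SE 0.0772, adjusted p = 0.000159) and by 0.49 in Farage (SE 0.0772, adjusted p = 2.81e-05). Its change in SUDHL4 was -0.03 (adjusted p = 0.748) on the deposited scale and 0.27, a call, under median-of-ratios scaling.

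CCT2, on chromosome 12, encodes the beta subunit, which is also known to act outside the ring as a receptor for the autophagy of aggregated protein. In treated SUDHL6 CCT2 was at 399, 336 and 374 CPM, against 374, 335 and 374 CPM in SUDHL6 with DMSO. For treated Farage the values were 523, 539 and 582 CPM, against 374, 441 and 407 CPM in Farage with DMSO. For treated SUDHL4 they were 387, 423 and 341 CPM, against 571, 538 and 534 CPM in SUDHL4 with DMSO. The libraries overlapped in SUDHL6, all treated ones were higher in Farage, and all treated ones were lower in SUDHL4. CCT2 rose by 0.43 in Farage (SE 0.0907, adjusted p = 0.000458) and fell by 0.52 in SUDHL4 (SE 0.0907, adjusted p = 7.96e-05). The call in SUDHL4 was lost under median-of-ratios scaling (-0.22), edgeR (-0.19) and DESeq2 (-0.20).

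CCT5, on chromosome 5, encodes the epsilon subunit, in which a mutation causes a sensory neuropathy. In treated SUDHL6 CCT5 was at 475, 402 and 479 CPM, against 401, 397 and 450.1 CPM in SUDHL6 with DMSO. In treated Farage it was at 480.2, 497 and 515 CPM, against 327, 342 and 319.8 CPM in Farage with DMSO. In treated SUDHL4 it was at 385, 429 and 335 CPM, against 306, 304 and 311 CPM in SUDHL4 with DMSO. The groups were separate in Farage and SUDHL4 and overlapped in SUDHL6. CCT5 rose by 0.59 in Farage (SE 0.0886, adjusted p = 1.6e-05) and by 0.31 in SUDHL4 (SE 0.0886, adjusted p = 0.00469). Its change in SUDHL6 was 0.12 (adjusted p = 0.255), and 0.30, a call, under median-of-ratios scaling.

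Of the subunits whose yeast counterparts bind ATP weakly, CCT7, on chromosome 2, encodes the eta subunit. In treated SUDHL6 CCT7 was at 466, 390.4 and 425 CPM, against 417, 417 and 427 CPM in SUDHL6 with DMSO. Treated Farage libraries held 442, 461 and 494 CPM, against 461, 509.5 and 473 CPM in Farage with DMSO. The treated SUDHL4 libraries held 256, 275 and 246 CPM, against 422, 429 and 404 CPM in SUDHL4 with DMSO. The libraries overlapped in SUDHL6 and Farage, and every treated SUDHL4 library was below every DMSO one. CCT7 fell by 0.69 in SUDHL4 (SE 0.0734, adjusted p = 3.27e-07), to 259 ± 14.8 CPM against 419 ± 12.7 CPM with DMSO, and this fall was called under every scaling (-0.39 under median-of-ratios scaling). The change of CCT7 was 0.02 in SUDHL6 (adjusted p = 0.841), and 0.23 with edgeR and 0.21 with DESeq2, both calls. In Farage it was -0.05 (adjusted p = 0.577) on the deposited scale, 0.20 under median-of-ratios scaling, not called, and 0.21 with DESeq2, a call.

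CCT8, on chromosome 21, encodes the theta subunit, next to CCT7 in the ring. In treated SUDHL6 CCT8 was at 319.5, 255 and 377 CPM, against 272, 254 and 333 CPM in SUDHL6 with DMSO. For treated Farage the values were 378, 408 and 401 CPM, against 354, 377 and 363 CPM in Farage with DMSO. For treated SUDHL4 they were 383, 390.2 and 364 CPM, against 506, 469 and 502 CPM in SUDHL4 with DMSO. Replicate 3 was highest in both SUDHL6 groups, which overlapped, while the groups were separate in Farage (treated higher) and in SUDHL4 (treated lower). CCT8 fell by 0.38 in SUDHL4 (SE 0.116, adjusted p = 0.00797), a call lost under median-of-ratios scaling (-0.08), edgeR (-0.05) and DESeq2 (-0.07). In SUDHL6 the change of CCT8 was 0.14 (adjusted p = 0.3), and 0.32 under median-of-ratios scaling, 0.35 with edgeR and 0.33 with DESeq2, all calls. It was also called, at 0.29, without treated SUDHL6 replicate 2. In Farage it was 0.12 (adjusted p = 0.372), and 0.36, a call, under median-of-ratios scaling.

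CCT6A, on chromosome 7, encodes the zeta subunit made in most tissues. In treated SUDHL6 CCT6A was at 539.9, 519 and 690.3 CPM, against 491, 497 and 601 CPM in SUDHL6 with DMSO. In treated Farage it was at 499, 534 and 529 CPM, against 322, 329 and 319 CPM in Farage with DMSO. In treated SUDHL4 it was at 705, 749.7 and 618 CPM, against 444, 427 and 489 CPM in SUDHL4 with DMSO. The groups were separate in Farage and SUDHL4, and in SUDHL6 replicate 3 was highest in both groups. CCT6A rose by 0.68 in Farage (SE 0.107, adjusted p = 2.65e-05) and by 0.60 in SUDHL4 (SE 0.107, adjusted p = 8.96e-05), the highest change of any subunit in both lines under every scaling. In SUDHL6 its change was 0.13 (adjusted p = 0.285), and 0.31, a call, under median-of-ratios scaling.

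CCT3, on chromosome 1, encodes the gamma subunit. In treated SUDHL6 CCT3 was at 1047, 941 and 1026 CPM, against 739, 730.3 and 726 CPM in SUDHL6 with DMSO. Treated Farage libraries held 794, 819 and 888 CPM, against 544, 629.6 and 588 CPM in Farage with DMSO. The treated SUDHL4 libraries held 746, 804 and 719 CPM, against 698, 708 and 694 CPM in SUDHL4 with DMSO. CCT3 was the subunit whose treated libraries lay above its DMSO libraries in all 3 lines. CCT3 rose by 0.46 in SUDHL6 (SE 0.0724, adjusted p = 3.5e-05) and by 0.51 in Farage (SE 0.0724, adjusted p = 9.96e-06). Its change in SUDHL4 was 0.11 (adjusted p = 0.188), and 0.41, a call, under median-of-ratios scaling.

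Counted as libraries that did not overlap, 2 subunits were higher and 0 lower in SUDHL6, where this held for 24.4% of all genes upward and 36.5% downward. In Farage 7 were higher and 0 lower (30.6% of genes upward, 53.2% downward), and in SUDHL4 4 were higher and 3 lower (28.9% upward, 51.6% downward). Averaged over the 3 lines, 5 subunits rose (CCT6A by 0.47, CCT3 by 0.36, CCT5 by 0.34, TCP1 by 0.31 and CCT4 by 0.29) and CCT7 fell by 0.24, beside 30.1% of all genes higher and 53.8% lower. The fall of CCT7 in that mean was lost under median-of-ratios scaling (0.00), edgeR (0.02) and DESeq2 (0.01). CCT2 (-0.02) and CCT8 (-0.04) were not called in the mean, and under those 3 settings both were called higher, at 0.22 to 0.24 for CCT2 and 0.20 to 0.22 for CCT8. In that mean 7 of 8 subunits were called higher and 0 lower under median-of-ratios scaling (39.4% of all genes higher, 44.4% lower), with edgeR (39.1% and 40.1%) and with DESeq2 (39.4% and 40.6%).

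The CPM of the 8 subunits was also summed in each library. In treated SUDHL6 the sum was 3871, 3387 and 4042 CPM, against 3161, 3126 and 3483 CPM in SUDHL6 with DMSO. In treated Farage it was 3907, 4078 and 4252 CPM, against 2944, 3231 and 3040.0 CPM in Farage with DMSO. In treated SUDHL4 it was 3525, 3817 and 3265 CPM, against 3545, 3490.0 and 3570.0 CPM in SUDHL4 with DMSO. On the deposited scale the treated sums were all above the DMSO sums in Farage, and overlapped them in SUDHL6 and SUDHL4. The sums were not rescaled. Under median-of-ratios scaling the mean of the 8 changes was above 0 in every line, at 0.35 in SUDHL6, 0.65 in Farage and 0.27 in SUDHL4. Same-numbered SUDHL6 libraries deviated together, and within each of the 3 pairs the treated sum was higher, as were CCT2, CCT3, CCT4, CCT5, CCT6A and CCT8, though for CCT2 by under 1 CPM in 2 pairs. TCP1 was higher in 2 of 3 pairs and CCT7 in 1 of 3. In SUDHL4 the deposited means were 3536 ± 276 CPM treated and 3535 ± 40.8 CPM with DMSO, the nearest to equal of the 3 lines. That near equality belongs to the deposited scale, since the mean of the 8 changes there was 0.27 under median-of-ratios scaling. The makeup of the sum changed in SUDHL4.

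A subunit's share of that sum does not depend on the scaling of the library. The shares are parts of a whole, so a gain by some subunits by itself lowers the shares of others, even where their CPM rose. In SUDHL4 CCT6A took 19.5 ± 0.54% of the sum in treated libraries and 12.8 ± 0.78% with DMSO. CCT7 took 7.33 ± 0.18% in treated SUDHL4 and 11.8 ± 0.48% with DMSO, and CCT2 took 10.8 ± 0.35% treated and 15.5 ± 0.58% with DMSO. The shares of these 3 subunits did not overlap between the groups, CCT6A higher and CCT7 and CCT2 lower with the inhibitor. In Farage CCT7 took 11.4 ± 0.18% treated and 15.7 ± 0.11% with DMSO, so it lost share there although its level overlapped. In SUDHL6 CCT3 took 26.7 ± 1.2% treated and 22.5 ± 1.5% with DMSO, and CCT7 took 11.4 ± 0.78% treated and 12.9 ± 0.59% with DMSO. The share of CCT7 was lower and that of CCT3 higher in all treated libraries of every line. CCT8 lost share in Farage (9.71 ± 0.29% treated, 11.9 ± 0.19% DMSO) and SUDHL4 (10.7 ± 0.47% treated, 13.9 ± 0.43% DMSO) and overlapped in SUDHL6. Within the SUDHL6 pairs the shares of CCT3 and CCT4 were higher in all 3 treated libraries, and those of the other 6 subunits lower, CCT8 by 0.22 to 0.60 percentage points.

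**Figure D3:**
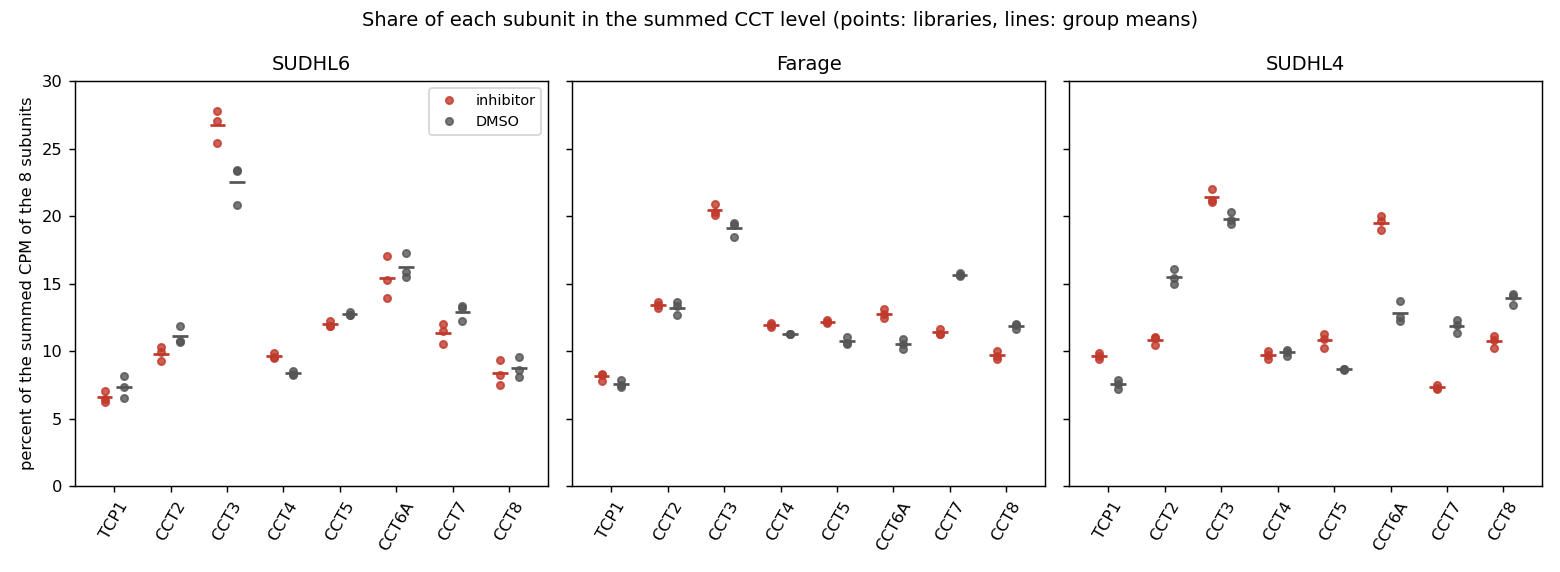
Share of each subunit in the summed CPM of the 8 subunits (vertical axis, percent), with the inhibitor left of DMSO; points are libraries and short lines group means. CCT7 is lower with the inhibitor in all 3 lines, and the widest shift is that of CCT6A in SUDHL4, at 19.5% with the inhibitor and 12.8% with DMSO.

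Ratios of subunits within a library gave the same picture. The ratio of CCT6A to CCT7 was 2.76, 2.72 and 2.51 in treated SUDHL4, against 1.05, 0.995 and 1.21 in SUDHL4 with DMSO. In treated Farage it was 1.13, 1.16 and 1.07, against 0.699, 0.647 and 0.675 in Farage with DMSO. In treated SUDHL6 it was 1.16, 1.33 and 1.62, against 1.18, 1.19 and 1.41 in SUDHL6 with DMSO. So this ratio was separate in Farage and SUDHL4 and overlapped in SUDHL6. CCT3 and CCT4 kept closer: their ratio was 1.71, 1.70 and 1.73 in treated Farage, against 1.64, 1.72 and 1.72 with DMSO. In treated SUDHL4 it was 2.25, 2.17 and 2.19, against 2.03, 2.01 and 1.95 with DMSO, so it was separate there, and it overlapped in Farage and SUDHL6. The CCT3 to CCT4 ratio changed by 0.02 in Farage, 0.04 in SUDHL6 and 0.14 in SUDHL4 on the log2 scale. They were not the only close pair. The TCP1 to CCT5 ratio changed by -0.08 in Farage, where it was separate, -0.06 in SUDHL6 and 0.04 in SUDHL4. Of the 28 pairs of subunits, 9 had ratios that did not overlap between treated and DMSO libraries in SUDHL6, 22 in Farage and 26 in SUDHL4. Among single genes, 24.4% were separate upward and 36.5% downward in SUDHL6, 30.6 and 53.2% in Farage, and 28.9 and 51.6% in SUDHL4. The share among pairs of other genes was not computed, so the pair counts do not set the subunits apart from other genes. Over the 6 libraries of a line, the levels of 28 of 28 pairs were positively correlated in SUDHL6 (median Pearson r 0.62), 22 of 28 in Farage (median 0.95) and 15 of 28 in SUDHL4 (median 0.20). The pairs share subunits, libraries, treatment groups and scaling, so these values are a description.

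The lines were compared in their response by the difference of their changes. CCT2 differed between every pair of lines, though the SUDHL6 minus Farage call was lost without treated SUDHL6 replicate 2 (-0.33), treated Farage replicate 3 (-0.355) or Farage DMSO replicate 1 (-0.34). Its change was 0.95 lower on the log2 scale in SUDHL4 than in Farage (-0.95, SE 0.128, adjusted p = 2.64e-05), 0.40 lower in SUDHL6 than in Farage (-0.40, adjusted p = 0.0226), and 0.55 higher in SUDHL6 than in SUDHL4 (0.55, adjusted p = 0.00357). CCT7 set SUDHL4 apart from the other lines, with a difference of -0.64 against Farage (adjusted p = 0.000142) and, for SUDHL6 minus SUDHL4, of 0.71 (adjusted p = 8e-05). In all, 5 subunits responded lower in SUDHL4 than in Farage (19.7% of all genes did) and 0 higher (17.7%). For SUDHL6 minus Farage, 4 were lower (CCT2, CCT5, CCT6A and TCP1, beside 15.1% of genes) and 0 higher (21.7%). For SUDHL6 minus SUDHL4, 5 were higher (22.5% of genes) and CCT6A was lower (12.5%). CCT2 and CCT7 kept their calls against SUDHL4 under median-of-ratios scaling, edgeR and DESeq2. The comparisons share libraries.

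The lines also differed in subunit levels without the inhibitor. Between the DMSO groups of SUDHL6 and Farage, CCT6A was 0.70 higher in SUDHL6 (529 ± 61.8 against 324 ± 5.29 CPM, adjusted p = 1.94e-05), and 3 subunits were called higher and 3 lower, beside 37.5% and 33.8% of all genes. Of these, the higher call of CCT5 was lost under median-of-ratios scaling (0.23). That scaling called 2 subunits higher and 4 lower (4229 and 4800 of 12769 genes). With edgeR 3 were higher and 4 lower (4490 and 4716 genes), as with DESeq2 (4483 and 4776). The lower call of CCT7 was lost without SUDHL6 DMSO replicate 1 or 2 (both -0.19) or Farage DMSO replicate 2 (-0.15), and that of CCT8 without SUDHL6 DMSO replicate 2 (-0.28). SUDHL4 with DMSO had more CCT2 (547 ± 20.2 CPM) than Farage with DMSO (407 ± 33.4 CPM, difference 0.43, adjusted p = 0.000526), and 4 subunits were called higher and 1 lower, beside 31.1% and 36.0% of genes. The lower one, CCT7, was not called under median-of-ratios scaling (-0.185), edgeR (-0.15) or DESeq2 (-0.18), nor without Farage DMSO replicate 2 (-0.16) or SUDHL4 DMSO replicate 3 (-0.18). SUDHL6 with DMSO had less CCT8 (286 ± 41.6 CPM) than SUDHL4 with DMSO (492 ± 20.4 CPM, difference -0.79, adjusted p = 1.39e-05, limma). In that comparison 1 subunit was called higher and 3 lower, beside 38.5% and 30.1% of genes. Under median-of-ratios scaling 1 was higher and 4 lower (4306 and 4385 of 12769 genes), as with edgeR (4372 and 4473). DESeq2 called 1 higher and 3 lower (4538 and 4404 genes). The sums of all 8 were nearer on the deposited scale: 3257 ± 197 CPM in SUDHL6, 3071 ± 146 CPM in Farage and 3535 ± 40.8 CPM in SUDHL4, all with DMSO.

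Levels can be compared between subunits only per length, here CPM per kilobase of the longest principal transcript in GENCODE release 29. CCT3 was the highest in every group, at 467 ± 26.0 CPM per kilobase in treated SUDHL6 and 340 ± 3.10 with DMSO, 388 ± 22.6 in treated Farage and 273 ± 20.0 with DMSO, and 352 ± 20.1 in treated SUDHL4 and 325 ± 3.30 with DMSO. The lowest was TCP1 in both SUDHL6 groups and in treated Farage, and CCT5 in the other 3 groups. TCP1 and CCT5 lay close together: in treated Farage they were at 133 ± 2.43 and 135 ± 4.69 CPM per kilobase, within their spread. The place of CCT5 rests on the length assumed for its transcript, 3675 bases, the longest of the 8. The ratio of the highest to the lowest subunit was 2.82 to 5.01 over the 18 libraries.

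Of the 8 subunit genes, 5 have a neighbour that starts within 1000 bases on the opposite strand. COMMD1, which encodes a regulator of copper handling and NF-kB, starts 80 bases from CCT4, and the annotated genes overlap. COMMD1 fell by 1.28 in SUDHL6 (5.83 CPM treated, 15.6 CPM DMSO), by 1.52 in Farage (10.5 CPM treated, 31.9 CPM DMSO) and by 1.34 in SUDHL4 (5.71 CPM treated, 15.8 CPM DMSO), so it went the other way from CCT4 in SUDHL6 and Farage. Whether the counting used strand is not given in the sources used here, so reads where the genes overlap cannot be told apart.

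PRADC1, 182 bases from CCT7, fell in every line, by 0.56 in SUDHL6, 0.54 in Farage (-0.32 under median-of-ratios scaling, not called) and 0.71 in SUDHL4, and SUDHL4 was the line in which CCT7 fell too. FAM173B, a methyltransferase gene 24 bases from CCT5, rose by 1.29 in SUDHL6, 0.59 in Farage and 0.88 in SUDHL4, and CCT5 also rose in Farage and SUDHL4. PSPH, which encodes the last enzyme of serine synthesis, starts 26 bases from CCT6A. PSPH rose by 0.51 in Farage, as CCT6A did, and fell by 0.46 in SUDHL4, where CCT6A rose, and by 0.38 in SUDHL6. Both falls of PSPH were lost under median-of-ratios scaling (-0.17 in SUDHL4 and -0.20 in SUDHL6). MRPL18, a mitochondrial ribosomal protein gene 63 bases from TCP1, fell by 0.51 in Farage, where TCP1 rose. Its changes of -0.02 in SUDHL6 and 0.07 in SUDHL4 were not calls, and the second was 0.37, a call, under median-of-ratios scaling. The rises and falls of the neighbours are limma calls on the deposited scale, with adjusted p from 4.77e-08 to 0.0155.

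**Figure D4:**
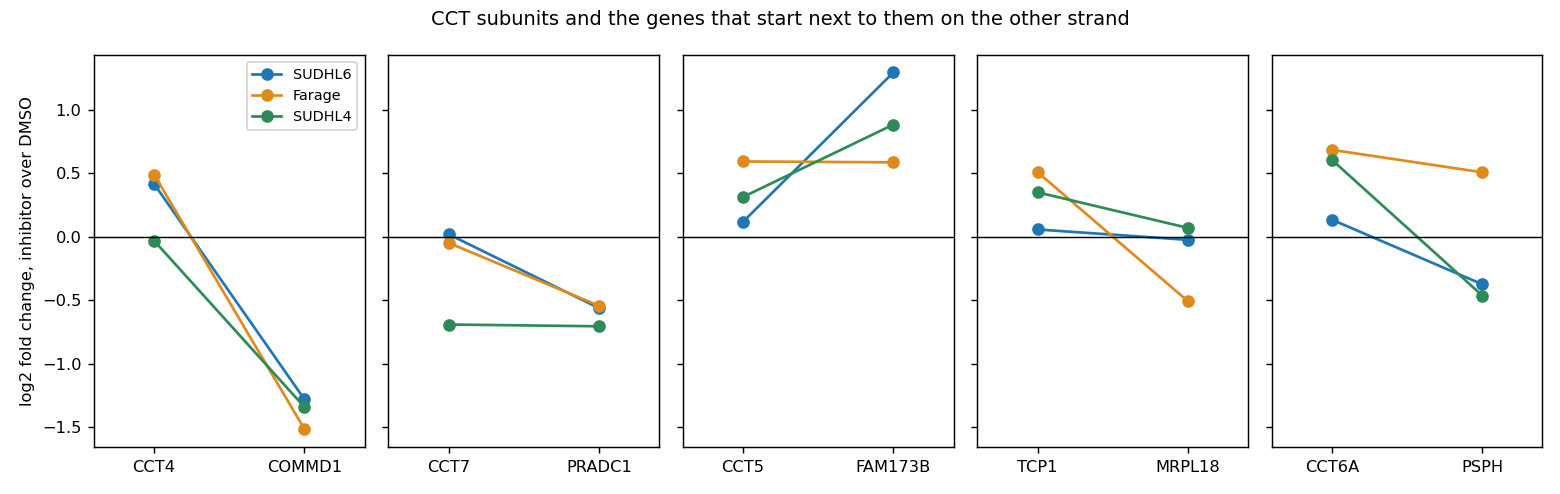
Log2 fold change with the inhibitor over DMSO (vertical axis) of 5 subunit genes (left point of each line) and of the gene that starts next to each on the other strand (right point), coloured by cell line. COMMD1 lies far below CCT4 in all 3 lines, and FAM173B lies above 0 in all 3.

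CCT6A has pseudogene copies that can share its reads. CCT6P1 and CCT6P3 together had 1.33 to 2.48% of the CPM of CCT6A across the groups. These are the reads assigned to the copies, and they do not measure reads placed wrongly between the copies and CCT6A. The part of shared reads in the changes of CCT6A was not tested. CCT6P3 rose in SUDHL6 (5.19 ± 1.7 CPM treated, 2.97 ± 0.76 CPM DMSO, adjusted p = 0.00561) and in SUDHL4 (4.19 ± 0.29 CPM treated, 2.61 ± 0.19 CPM DMSO, adjusted p = 0.0157), and CCT6P1 was not called in any line on that scale (in SUDHL4 0.11, and 0.36, a call, under median-of-ratios scaling).

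Genes of chaperones and cochaperones that work with CCT were read from lists. The heat shock genes, which include the chaperones that work upstream of CCT, had 5 of 8 higher in SUDHL6, 7 in Farage and 4 in SUDHL4, beside 26.8, 25.4 and 24.3% of all genes. None fell in SUDHL6, HSF1 fell in Farage, and HSF1 and HSF2 fell in SUDHL4, the last 2 calls being lost under median-of-ratios scaling (-0.15 and 0.10). HSPA1A, whose reads can be shared with its near copy HSPA1B, rose by 2.11 in SUDHL6, 4.60 in Farage and 0.64 in SUDHL4. It was at 7.7 CPM treated and 1.02 CPM DMSO in SUDHL6, and at 171 and 6.11 CPM in Farage. In SUDHL4 it was below 1 CPM (0.693 treated, 0.0897 DMSO). The 1 added to each CPM understates changes at such levels, so the lines cannot be ranked by these values. DNAJB1, the J-domain partner of HSP70, rose by 2.43, 3.25 and 2.53 in the same lines, and HSPH1, an HSP110 exchange factor, by 1.52, 1.99 and 2.08. HSP90AB1, the constitutive cytosolic HSP90, rose by 0.69, 1.18 and 0.83. Set beside these, the median of the CCT subunits (0.13, 0.50 and 0.04) was lower than that of the heat shock list (1.03, 1.47 and 0.50) in every line.

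The other cochaperones of CCT were read beside all genes on the deposited scale. Of all genes, 26.8, 25.4 and 24.3% were called higher in SUDHL6, Farage and SUDHL4, and 41.3, 46.5 and 46.2% lower. Of the 6 prefoldin subunits, 1 rose in SUDHL6 and 0 in the other lines, and PFDN6 fell in every line, by 0.83 in SUDHL6, 1.12 in Farage and 1.16 in SUDHL4. PFDN5 (-0.10), VBP1 (0.07) and PFDN2 (-0.07) were near 0 in the mean of the lines and not called. Under median-of-ratios scaling 4 of 6 prefoldin genes were called higher in that mean and 1 lower. The shares of all genes there were 39.4% higher and 44.4% lower. Of the phosducin-like genes, 3 were tested: PDCL3, which assists the folding of tubulin and actin, fell by 0.87 in SUDHL6 and 1.45 in SUDHL4, and its change in Farage was -0.16 (adjusted p = 0.262). TXNDC9 fell by 0.66 in Farage and 0.68 in SUDHL4, and PDCL rose by 0.22 in SUDHL6. Of 7 prefoldin-like and R2TP genes, 2 rose and 3 fell in SUDHL6, 1 rose and 5 fell in Farage, and 1 rose and 3 fell in SUDHL4. Under median-of-ratios scaling 2 rose and 3 fell in SUDHL6 (33.1% of all genes higher, 34.8% lower), and 1 rose and 2 fell in Farage (33.6% and 37.2%). On that scale 4 rose and 3 fell in SUDHL4 (34.3% and 36.1%). Among them RUVBL1, an ATPase of the HSP90 cochaperone R2TP, fell by 2.10 in SUDHL6, 2.11 in Farage and 2.80 in SUDHL4, and PDRG1 rose by 1.09, 1.5 and 0.50. PIH1D1 and C19orf2, the older symbol of URI1, also fell in all 3 lines on the deposited scale. The fall of C19orf2 in Farage (-0.21) was lost under median-of-ratios scaling (0.03), and that of PIH1D1 in SUDHL6 (-0.39) with edgeR (-0.18) and DESeq2 (-0.19).

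The clients of the chaperonin were read beside all genes, of which 53.8% were lower in the mean of the lines and 30.1% higher. In that mean 44.4% were lower and 39.4% higher under median-of-ratios scaling, and 40.1% and 39.1% with edgeR. All 4 actin and actin-related genes fell in the mean of the lines (3 of 4 under median-of-ratios scaling): ACTB by 1.56, ACTG1 by 0.95, ACTR3 by 0.50 and ACTR2 by 0.25 (-0.01 and not called under median-of-ratios scaling). Of 13 tubulin genes, 8 fell and 3 rose in that mean, a share near that of all genes; 7 fell under median-of-ratios scaling and 6 with edgeR. TUBB fell by 2.90 in SUDHL6, 2.15 in Farage and 2.13 in SUDHL4, TUBA1B by 2.07, 1.44 and 1.86, and TUBG1, of the centrosome, by 1.41, 1.92 and 2.08. TUBB2B fell by 1.84 in SUDHL6, from 143 CPM with DMSO to 39.0 CPM. In the other lines it was all but absent, at 0.0112 CPM treated and 0.0928 CPM DMSO in Farage, and 0.0 CPM in both SUDHL4 groups. Its values of -0.11 in Farage and 0.00 in SUDHL4 therefore do not describe a response. Of 5 tubulin folding cofactors, which take tubulin over from CCT, 4 fell in the mean, among them TBCD by 1.62, TBCB by 1.28, TBCC by 0.40 and TBCA by 0.31. TBCC did not fall in every line: it rose by 0.53 in SUDHL6 (adjusted p = 0.00447, limma), and fell by 1.25 in Farage and 0.50 in SUDHL4. The fall of TBCA was called in SUDHL6 (-0.56) and not in Farage (-0.16) or SUDHL4 (-0.23). Under median-of-ratios scaling and edgeR 2 of the 5 cofactors fell and 1 rose, with TBCC (-0.17) and TBCA (-0.08) not called under median-of-ratios scaling.

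Of 10 other clients, 6 fell and 2 rose in the mean, near the shares of all genes. Under median-of-ratios scaling 6 fell and 4 rose (44.4% of all genes lower, 39.4% higher), as with edgeR (40.1% and 39.1%). GNB5, a G protein beta subunit, fell by 1.42, MLST8 by 0.97 and RPTOR by 0.90, both beta-propeller proteins of the mTOR complex, while STAT3 rose by 0.59. Tubulin transcripts belong to large families, and reads of close copies can be split between them. The list medians in the mean of the lines were -0.72 for actins, -0.65 for tubulins and -0.74 for other clients, beside 0.30 for the CCT subunits and -0.24 for all genes. The tubulin median is the value of TUBB2B, which was all but absent in Farage and SUDHL4.

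**Figure D5:**
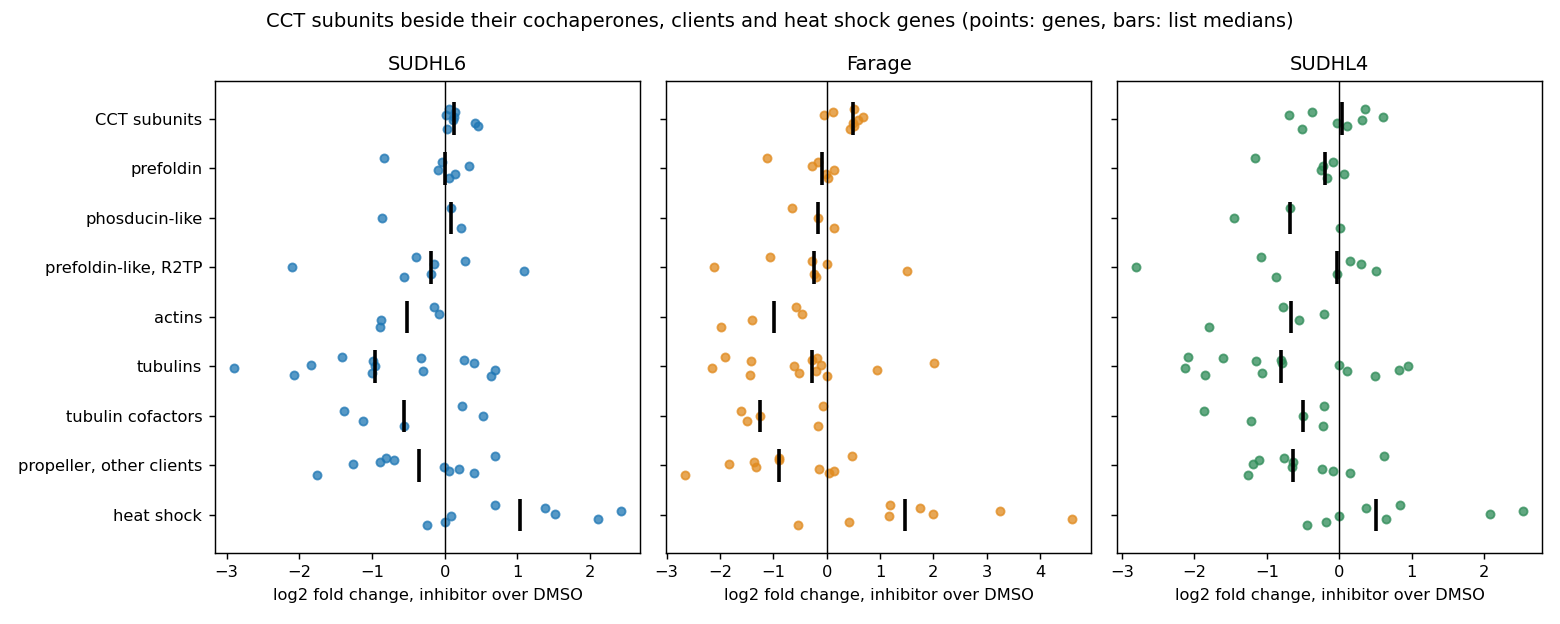
Log2 fold change with the inhibitor over DMSO (horizontal axis) of the CCT subunits, 7 lists of cochaperones and clients, and the heat shock genes, in each line; points are genes and black bars list medians. The heat shock list is farthest to the right in each line, and its median of 1.47 in Farage is above the 0.50 of the CCT subunits.

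Of 6 tested relatives of the subunits outside the complex, 1 rose and 2 fell in the mean of the lines (30.1% of all genes higher, 53.8% lower). In that mean 3 rose and 2 fell under median-of-ratios scaling (39.4% and 44.4%) and with edgeR (39.1% and 40.1%). MKKS and BBS10, chaperonin-like proteins that work with CCT in building the BBSome of cilia, fell in the mean of the lines by 0.78 and 1.18. BBS12, their partner, rose by 0.72. The change of MKKS was -1.03 in Farage and -1.12 in SUDHL4, but -0.18 and not called in SUDHL6. HSPE1, the cochaperone of the mitochondrial chaperonin, rose by 0.81 in Farage and fell by 0.35 in SUDHL4 (-0.06, not called, under median-of-ratios scaling), and its change in SUDHL6 was -0.10 (adjusted p = 0.526). MYC, a transcription factor with chaperonin genes among its known targets, fell by 1.45 in SUDHL6, 0.27 in Farage and 3.78 in SUDHL4, and its partner MAX rose by 0.24, 0.63 and 0.57. The fall of MYC in Farage was lost under median-of-ratios scaling and edgeR (-0.03 each) and DESeq2 (-0.01). The part of MYC or of heat shock factors in the subunits' changes was not tested.

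The genes most like the mean of the 8 subunits over the 18 libraries were TXNL4B, with a Pearson r of 0.914, PITHD1 (0.885), DNAJB11 (0.874), HSPA8 (0.857), HSP90AA1 (0.856), CDC42EP3 (0.841), C12orf41 (0.838) and C9orf152 (0.832). These values describe 18 libraries that fall into groups by line and treatment and share their scaling, so no p is given. With the same measure TCP1 had an r of 0.729 and CCT4 of 0.845 with the mean that includes them, and CCT7 of 0.112. HSPA8, the constitutive HSP70, rose by 1.17 in Farage and had changes of 0.09 in SUDHL6 and 0.00 in SUDHL4. TXNL4B changed by 1.31 in Farage, 0.76 in SUDHL6 and -0.12 in SUDHL4.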

How the data were processed

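RNA-seq of 18 libraries was used as CPM values that the authors deposited, 1 table of 23250 gene symbols per library. A TruSeq RNA kit was used, per the labels' protocols. The submitters' processing notes name STAR and hg19, and the label of 1 sample names Rsubread. Strand setting, annotation release and tool versions: not given in the sources used here. Dividing each deposited CPM by the value of 1 read gave a whole number for 100% of values, within 0.01 reads. Listed genes held 74.63 to 80.72% of the divisor, so the rest lay outside them.

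Groups and replicate numbers came from the labels. Tests used limma 3.58.1 (lmFit, eBayes with trend; R 4.3.3) on log2(CPM + 1), which understates changes of low genes, for genes that reached a CPM of 1 in 3 or more libraries. The model had 1 mean per group (6 groups), 12 residual degrees of freedom and 1 spread per gene for all lines. The p-values are two-sided and adjusted after Benjamini and Hochberg over 12769 genes. The script was tested on simulated data first. Replicate numbers were checked for pairing by the correlation of deviations from group means: same-numbered SUDHL6 libraries gave 0.42, 0.49 and 0.63, so the numbers pair them, by the data and not the labels. Farage (0.17, -0.13 and -0.19) and SUDHL4 (-0.05, 0.03 and -0.07) were not paired.

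The members and the gene lists were chosen with earlier results of these data known. By rule the text names the 8 members, at most 4 genes of a list (smallest p in the mean of the lines first), the 8 tested genes most correlated with the members' mean, neighbours that start within 1000 bases head to head, and copies marked by symbol. Of the list genes, 3 were found by an older symbol and 1 was not matched. Alternatives were a pseudocount of 0.25, no filter, a mean CPM of at least 5, median-of-ratios scaling, a replicate block, only the compared lines, each library left out, both shallow SUDHL6 libraries left out, and, on recovered reads, DESeq2 1.42.0 and the quasi-likelihood test of edgeR 4.0.16 with TMM, which called 8701 genes in SUDHL6, 9160 in Farage and 9130 in SUDHL4. Neighbours and lengths came from GENCODE release 29, and start windows from RefSeq (GRCh38.p14).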

Additional observations from a re-analysis of the deposited data

Results flagged for a closer look

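For 15 subunit responses, the treated-minus-DMSO changes of a pair of lines differed by a test of the difference itself (limma, adjusted p under 0.05 over all genes). The values are differences of log2 fold changes. For SUDHL6 minus Farage they were -0.40 for CCT2, -0.48 for CCT5, -0.55 for CCT6A and -0.45 for TCP1. For SUDHL4 minus Farage they were -0.95 for CCT2, -0.40 for CCT3, -0.52 for CCT4, -0.64 for CCT7 and -0.50 for CCT8. For SUDHL6 minus SUDHL4 they were 0.55 for CCT2, 0.34 for CCT3, 0.45 for CCT4, -0.47 for CCT6A, 0.71 for CCT7 and 0.52 for CCT8. The comparisons share libraries.

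Under median-of-ratios scaling, edgeR and DESeq2 alike, the calls of CCT2 and CCT7 against SUDHL4 held, in both comparisons, and those of CCT3, CCT4 and CCT8 for SUDHL6 minus SUDHL4 and of CCT8 for SUDHL4 minus Farage were lost. Leaving out 1 library at a time ended these calls. For SUDHL6 minus Farage, CCT2 was lost without treated SUDHL6 replicate 2, treated Farage replicate 3 or Farage DMSO replicate 1 (-0.33 to -0.355). TCP1 was lost there without treated SUDHL6 replicate 2, SUDHL6 DMSO replicate 3, treated Farage replicate 2, or Farage DMSO replicate 1 or 3 (-0.32 to -0.45). For SUDHL4 minus Farage, CCT8 was lost without treated SUDHL4 replicate 3, SUDHL4 DMSO replicate 1, treated Farage replicate 2 or 3, or Farage DMSO replicate 1 (-0.47 to -0.49). For SUDHL6 minus SUDHL4, CCT6A was lost without treated SUDHL6 replicate 2, SUDHL6 DMSO replicate 3, or replicate 1 or 2 of either SUDHL4 group (-0.38 to -0.46), and CCT8 without SUDHL6 DMSO replicate 2 (0.44). TCP1 was gained there without treated SUDHL6 replicate 3 or SUDHL6 DMSO replicate 1 (-0.39 each).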

How the results depend on the processing

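A pseudocount of 0.25, no filter, a mean CPM of at least 5, and leaving out both shallow SUDHL6 libraries moved no count by over 1.5 times and turned no call of a subunit given in the text. Scaling decided more. The subunits called in SUDHL6 were 2 on the deposited scale, 5 under median-of-ratios scaling and 6 with edgeR or DESeq2. With median-of-ratios scaling, edgeR and DESeq2 in that order, changes that took the other sign were CCT7 in Farage (0.20, 0.19 and 0.21), CCT4 in SUDHL4 (0.27, 0.29 and 0.28), and in the mean of the lines CCT2 (0.22, 0.24 and 0.24), CCT7 (0.0008, 0.017 and 0.013) and CCT8 (0.20, 0.22 and 0.21). In the other direction, 3 of 6 subunits stayed called for SUDHL6 minus SUDHL4 under each of these 3 settings, and 3 of 5 for SUDHL4 minus Farage with edgeR. Fitting only the compared lines called 7265 genes for SUDHL4 minus Farage, against 4775 with all lines, but fewer for SUDHL6 minus Farage (3936 against 4696), for SUDHL6 minus SUDHL4 (3277 against 4474) and in SUDHL6 (6406 against 8697). That fit lost TCP1 in SUDHL6 minus Farage (adjusted p = 0.0577, limma) and CCT6A (0.0831) and CCT8 (0.0751) in SUDHL6 minus SUDHL4, and called CCT8 in Farage (0.0338). The cause was not tested.

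With 1 library left out at a time, the subunits called for SUDHL6 minus Farage ranged from 2 to 4, with 2 when treated SUDHL6 replicate 2 or Farage DMSO replicate 1 was missing. Uncalled changes crossed 0: in SUDHL6 CCT2 (-0.025 to 0.099), CCT7 (-0.046 to 0.082) and TCP1 (-0.043 to 0.18), in SUDHL4 CCT4 (-0.088 to 0.0005), and in the mean CCT2 (-0.043 to 0.0091) and CCT8 (-0.084 to 0.010). Without treated SUDHL6 replicate 2, CCT8 in SUDHL6 was called at 0.29. A replicate block called TCP1 for SUDHL6 minus SUDHL4 (-0.29), which was not called without it, and changed no other call given for a subunit. It could not be fitted between DMSO groups, since the blocks were replicate numbers within a line. The lowest depth behind a subunit's value was 2356 reads.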
